A study of Mus musculus with 6 samples.

Results

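The nuclear genes for subunits and assembly factors of the mitochondrial respiratory chain were followed across the cells of 2 pericyte lineage-tracing mouse lines. The members were all genes whose symbol starts with Ndufa, Ndufb, Ndufc, Ndufs, Ndufv, Cox4 to Cox8, Uqcr or Atp5, with the isoforms Cox4i2 and Ndufa4l2 left out. The rule found 87 members among the 23494 genes of the 3 deposited count tables. They comprised 7 core subunits, 30 accessory subunits and 8 assembly factors of complex I, 8 subunits of complex III, 16 of complex IV, 17 of ATP synthase, and Cox7a2l, which helps complexes III and IV join into supercomplexes. Of the 87 members, 79 averaged at least 20 UMIs per 1000000 (CPM) over the libraries.

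Tamoxifen-induced NG2-CreERT2/Ai14 and Tbx18-CreERT2/Ai14 mice, aged 3 to 4 months, were left uninjured (naive), received saline in the cerebral cortex (physical injury) or received the vasoconstrictor endothelin-1 with the nitric oxide synthase inhibitor L-NAME (ischemic injury). Injury followed tamoxifen by 7 days, and cortex was collected 3 days after injury. Living tdTomato-positive cells (tdT+/DAPI-) were sorted and profiled by droplet 3′ single-cell RNA-seq, in which unique molecular identifiers (UMIs) count captured RNA molecules. Each of the 6 combinations of line and condition was 1 library pooled from several animals of both sexes, so there was no replicate of any group and no test between groups was made. The NG2 driver is a Cspg4 transgene that also marks oligodendrocyte precursor cells (OPCs), and the Tbx18 driver is a knock-in. The paper found smooth muscle and endothelial clusters in both lines, so the sorted cells need not be pericytes.

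Oxidative phosphorylation moves electrons from NADH through complexes I, III and IV to oxygen and uses the resulting proton gradient to make ATP at ATP synthase. Most subunits are encoded in the nucleus, and the mitochondrial genome adds a small set of core subunits, read here from the 13 genes named mt-. Complex I accepts electrons from NADH, complex III passes them to cytochrome c, and complex IV, cytochrome c oxidase, hands them to oxygen. In brain microvessels, pericytes are known for RNA of Cox4i2 and Ndufa4l2, paralogues of the complex IV subunits Cox4i1 and Ndufa4.

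The 6 libraries held 17033 cells, with 686 to 4306 cells, median depths of 2806 to 9232 UMIs per cell and 3153996 to 54276245 UMIs per library. A level below is the UMI total of a gene or gene group within 1 cluster of 1 library, as its share of all UMIs there in CPM, without scaling by gene length. Differences are log2 ratios of CPM with a 95% interval that covers counting error only, not differences between animals or libraries. The clusters are those of the authors, named from marker lists, and because they were formed on expression, differences between clusters are descriptions. The table of both naive libraries holds clusters 0 to 13, more than the paper describes for these cells. Its cluster numbers are therefore not those of the paper. Library pairs shared 0 to 5 cell barcodes. In the NG2 pericyte-like clusters 0, 1 and 2 the summed pericyte markers ranged from 32254 to 39128 CPM over the 3 libraries. In the Tbx18 line the naive cells did not match their cluster as well. Naive cells of the myeloid cluster 3 and of cluster 4 carried 20676 and 15142 CPM of pericyte markers, against 8.47 to 119 CPM after injury, and the naive values of both clusters are therefore not used as myeloid or as cluster 4 levels.

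Promoters of 3 members are shown because they span the range from recognisable factor letters to none: Cox8a, the member with the highest mean level, Uqcr11 of complex III, and Ndufa4, the member that varied most between cell types. Each covers 250 bases before and 50 bases after the RefSeq start on the minus strand of GRCm38.p6, at chr19:7217567-7217866 for Cox8a, chr10:80406772-80407071 for Uqcr11 and chr6:11907401-11907700 for Ndufa4. Capitals mark matches to ETS or NRF1 letters.
Cox8a: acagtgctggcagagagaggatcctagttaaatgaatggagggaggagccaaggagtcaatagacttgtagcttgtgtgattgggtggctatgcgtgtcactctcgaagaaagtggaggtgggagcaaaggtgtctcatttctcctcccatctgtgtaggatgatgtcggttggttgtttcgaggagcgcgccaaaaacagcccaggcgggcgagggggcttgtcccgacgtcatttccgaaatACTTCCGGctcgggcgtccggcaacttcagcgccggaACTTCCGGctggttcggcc
Uqcr11: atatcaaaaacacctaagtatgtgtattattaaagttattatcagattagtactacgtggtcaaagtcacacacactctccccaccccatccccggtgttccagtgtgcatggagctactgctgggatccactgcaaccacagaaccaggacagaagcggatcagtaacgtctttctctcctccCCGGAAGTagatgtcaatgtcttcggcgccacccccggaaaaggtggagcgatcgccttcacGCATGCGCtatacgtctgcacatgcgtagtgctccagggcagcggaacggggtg
Ndufa4: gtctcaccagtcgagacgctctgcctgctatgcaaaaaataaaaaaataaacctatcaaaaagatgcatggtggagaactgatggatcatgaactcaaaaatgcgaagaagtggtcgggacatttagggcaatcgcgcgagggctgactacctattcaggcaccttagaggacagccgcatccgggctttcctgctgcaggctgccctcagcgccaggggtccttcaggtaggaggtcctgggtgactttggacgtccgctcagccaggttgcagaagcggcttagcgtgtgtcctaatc
The letters searched on both strands were GCATGCGC for NRF1, CCGGAAGT for ETS factors and AAGATGGC for YY1, factors known to act on respiratory genes. Of the members, 72 symbols had 77 promoters in the RefSeq table, and 25 of these (32.5%) held at least 1 of the 3 motifs, against 8.83% of all 32851 promoters. NRF1 letters occurred in 11 member promoters (14.3%) and 2.71% of all, ETS letters in 5 (6.49%) and 3.89%, and YY1 letters in 10 (13%) and 2.75%. In 7 member promoters matches overlapped, as the NRF1 letters and their reverse complement do. The Cox8a window held the ETS letters on the opposite strand at 2 places, the Uqcr11 window held 1 NRF1 and 1 ETS match, and the Ndufa4 window held none of the 3.

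Cytochrome c oxidase subunits led the members. Cox8a, the isoform of the smallest complex IV subunit found in most tissues (chromosome 19, 7215153 to 7217616), was at 1308, 796 and 1006 CPM in the NG2 naive, physical and ischemic libraries. In the Tbx18 libraries Cox8a was at 931, 1010 and 599.9 CPM in the same order. It was the highest member in every NG2 and Tbx18 library but the Tbx18 ischemic library, where Cox4i1 was higher at 643 CPM. Cox6c, Cox4i1 and Cox7c, also of complex IV, averaged 704, 695 and 654 CPM over the 6 libraries. Next came Atp5b, the catalytic beta subunit of ATP synthase, at 476 CPM, and 4 small ATP synthase subunits with means of 475 CPM (Atp5e), 440 CPM (Atp5l), 439 CPM (Atp5j) and 409 CPM (Atp5h). Uqcrh, the hinge subunit of complex III, averaged 419 CPM. The lowest members were tissue-restricted isoforms and assembly factors, with Cox7a1 at 6.33, Cox6a2 at 0.556, Cox8b at 0.0993 and Cox7b2 at 0.0835 CPM on average. In NG2 naive cluster 0, complex I accessory subunits made up 31.2% of the members' UMIs, ATP synthase 26.2%, complex IV 24.5%, complex III 10.0%, complex I core subunits 5.70% and complex I assembly factors 1.54%.

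The members summed to 17119 to 24272 CPM per library and the mt- genes to 25290 to 34571 CPM. The range between cell types was wider than that. In the NG2 line, radial glia-like cluster 7 was highest within each injured library among clusters with 50 or more cells. It held 29397 CPM after physical and 33912 CPM after ischemic injury. Smooth muscle-like cluster 3 was at 28182, 27100 and 29878 CPM in the naive, physical and ischemic libraries, and pericyte-like cluster 1 at 26315, 23616 and 29562 CPM. Pericyte-like clusters 0 and 2 lay lower, at 20841, 18399 and 21651 CPM and at 19128, 16148 and 20136 CPM. Cluster 1 in any library thus lay above clusters 0 and 2 in every library. Cluster 0 lay above cluster 2 within each library. Endothelial-like cluster 5 was at 20028, 16566 and 20756 CPM, and oligodendrocyte-like cluster 4 at 19499, 16138 and 18301 CPM. OPC-like cluster 6 was lowest of the clusters with 50 or more cells, at 12778, 13773 and 16535 CPM. Cluster 10 stood apart from all of these, with 2996 to 4511 CPM of the members and 110 cells over the 3 libraries, fewer than 50 in each. Its best marker list was that of pericytes, at a mean relative level of 0.53, against 0.82 to 0.86 in clusters 0, 1 and 2. The part of depth in its low level was not tested.

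**Figure D1:**
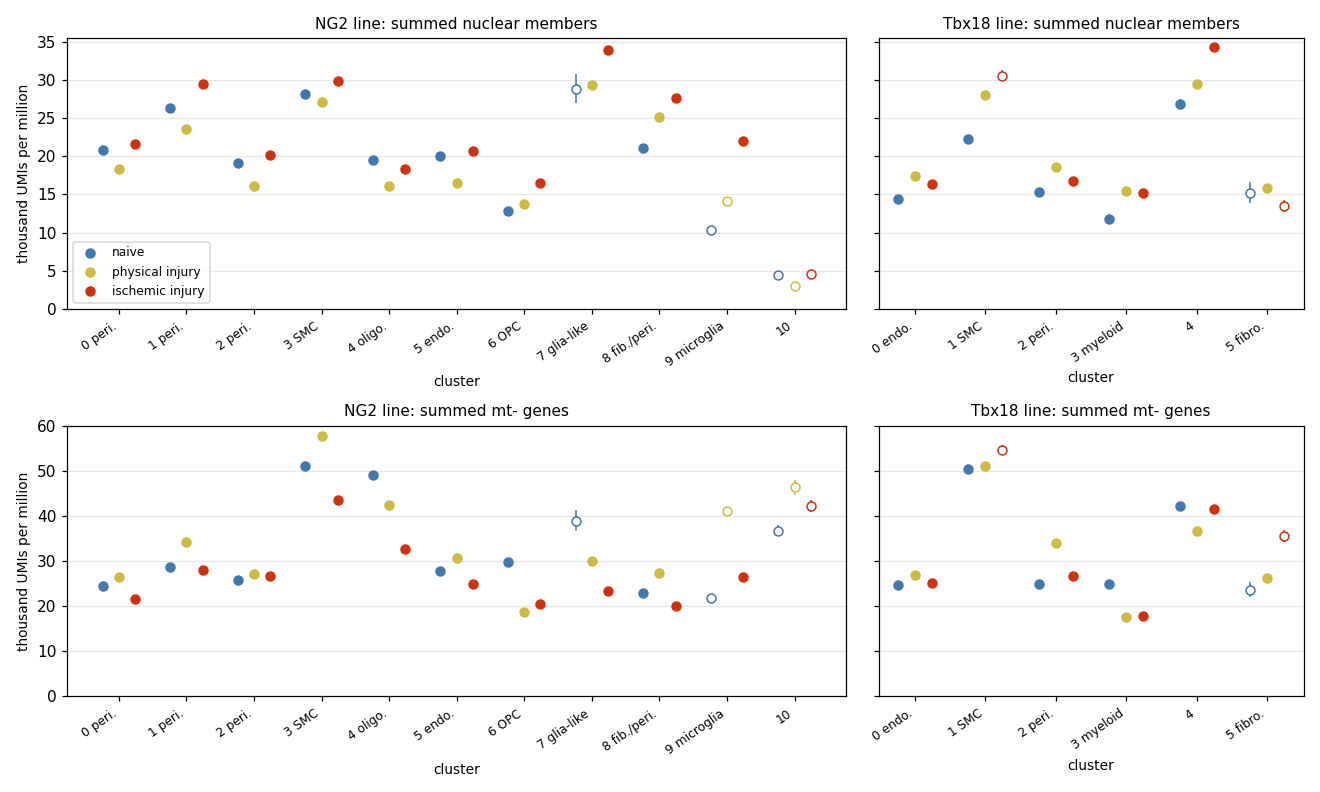
Summed nuclear members (top) and summed mt- genes (bottom) in CPM (axes in units of 1000) for each cluster of the NG2 (left) and Tbx18 (right) line, 1 point per library, with open points for fewer than 50 cells and vertical lines for exact 95% Poisson intervals. NG2 clusters 3 and 7 and Tbx18 clusters 1 and 4 are among the highest for the nuclear members, and NG2 cluster 10 lowest, at 2996 to 4511 CPM. The naive points of Tbx18 clusters 3 and 4 come from cells that carried pericyte markers.

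In the Tbx18 line, cluster 4 reached 29447 CPM after physical and 34314 CPM after ischemic injury. Smooth muscle-like cluster 1 was at 22323 CPM in the naive and 28078 CPM in the physical library. Endothelial-like cluster 0 was at 14412, 17425 and 16307 CPM in the naive, physical and ischemic libraries, and pericyte-like cluster 2 at 15284, 18576 and 16727 CPM. Myeloid-like cluster 3 was at 15510 CPM after physical and 15225 CPM after ischemic injury. Smooth muscle-like cells were therefore high and endothelial-like cells lower in both lines.

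The nuclear members and the mt- genes did not keep 1 ratio across cell types. In the NG2 line the ratio of their sums ran from 0.380 in oligodendrocyte-like cluster 4 after physical injury to 1.44 in radial glia-like cluster 7 after ischemic injury, with a median of 0.738 over 27 pairs of cluster and library with at least 50 cells. Smooth muscle-like cluster 3 combined high nuclear with high mt- sums, the latter at 51069, 57810 and 43607 CPM in the naive, physical and ischemic libraries. Radial glia-like cluster 7 combined the highest nuclear sum with an mt- sum of 23478 CPM after ischemic injury. Over the 27 NG2 points Pearson's r was 0.22 and Spearman's rho 0.14, and over 15 Tbx18 points they were 0.78 and 0.88. The Tbx18 points include the naive cells of clusters 3 and 4, which carried pericyte markers. These points share libraries and depth, and the correlations are given as descriptions only.

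**Figure D2:**
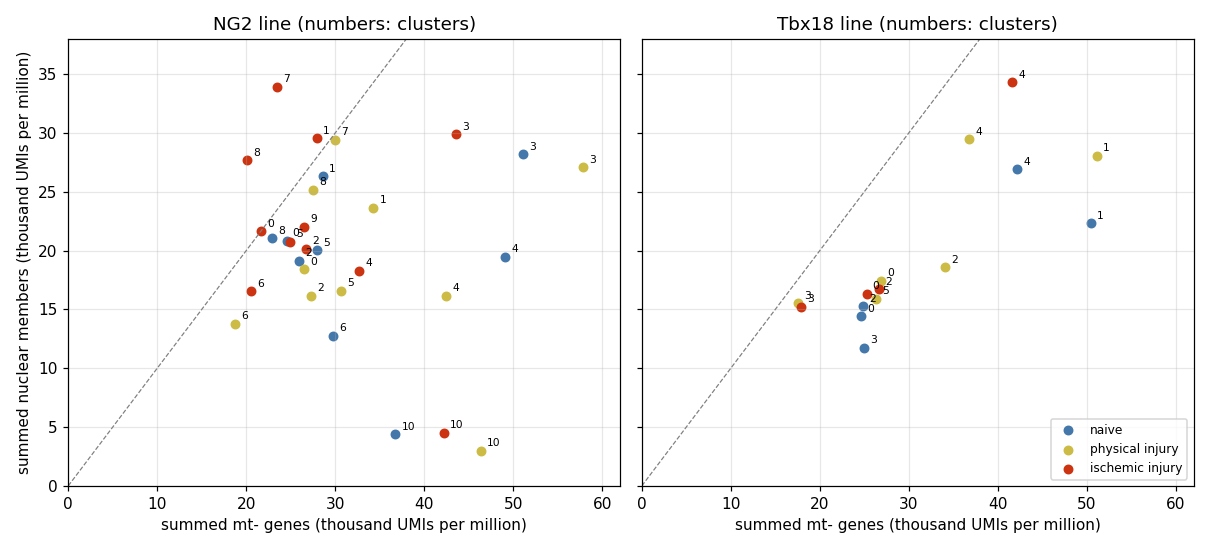
Summed nuclear members against summed mt- genes, both in CPM (axes in units of 1000), for each cluster (number) and library (colour) with at least 50 cells, plus NG2 cluster 10, in the NG2 (left) and Tbx18 (right) line. The dashed line marks equal sums, and most points lie below it, with NG2 cluster 7 after ischemic injury above it at a ratio of 1.44. The naive points of Tbx18 clusters 3 and 4 come from cells that carried pericyte markers.

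Ndufa4 separated the cell types more than any other member that was detected in all 27 NG2 pairs. It encodes a subunit now counted with complex IV, and its paralogue Ndufa4l2 is induced by hypoxia. In NG2 pericyte-like cluster 0 Ndufa4 was at 11.3, 14.4 and 18.2 CPM in the naive, physical and ischemic libraries, from 62, 28 and 43 UMIs. In cluster 1 it was at 23.6, 29.8 and 40.6 CPM and in cluster 2 at 24.7, 12.3 and 25.3 CPM. Smooth muscle-like cluster 3 had 426, 418 and 431 CPM, endothelial-like cluster 5 had 499, 391 and 456 CPM, and oligodendrocyte-like cluster 4 had 314, 250 and 335 CPM. Radial glia-like cluster 7 had the highest values, 901 CPM after physical and 963 CPM after ischemic injury. No pericyte-like value overlapped with the values of these other cell types. Pericyte-like cells of both lines were paired within a library with endothelial-like, smooth muscle-like and, in the NG2 line, oligodendrocyte-like cells. They were pooled clusters 0, 1 and 2 in the NG2 line and cluster 2 in the Tbx18 line, and the pairings were described after the values were seen. Ndufa4 was lower in the pericyte-like cells in 15 of 15 pairings. Its log2 ratio ran from -4.79 to -2.26, both in the Tbx18 line, with a median of -4.12.

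The left-out paralogue ran the other way. Ndufa4l2 was at 1767, 1570 and 1745 CPM in NG2 cluster 0, and made up 98.3% to 99.4% of the Ndufa4 and Ndufa4l2 UMIs in clusters 0, 1 and 2. In smooth muscle-like cells it made up 53.1% to 57.8% of the pair, and in oligodendrocyte-like cells 2.24% to 5.08%. Endothelial-like cluster 5 had 156 to 221 CPM of Ndufa4l2, beside 3156 to 5254 CPM of summed pericyte markers, and the part of pericyte RNA in that value was not tested. Cluster 8, which carried 22749 to 25229 CPM of pericyte markers with 477 to 781 CPM of fibroblast markers, resembled the pericyte-like clusters, with Ndufa4 at 25.7, 26.3 and 59.6 CPM and Ndufa4l2 at 95.8% to 98.2% of the pair.

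Cox4i1, the common isoform of the complex IV subunit that Cox4i2 can replace, varied far less. It was at 704, 645 and 736 CPM in NG2 cluster 0 and at 809, 856 and 975 CPM in smooth muscle-like cluster 3. Cox4i2 made up 37.2% to 47.3% of the pair in clusters 0, 1 and 2, 8.71% to 14.3% in smooth muscle-like and 0.157% to 0.285% in oligodendrocyte-like cells. Pericyte-like cells thus held both Cox4 isoforms in quantity but little Ndufa4.

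**Figure D3:**
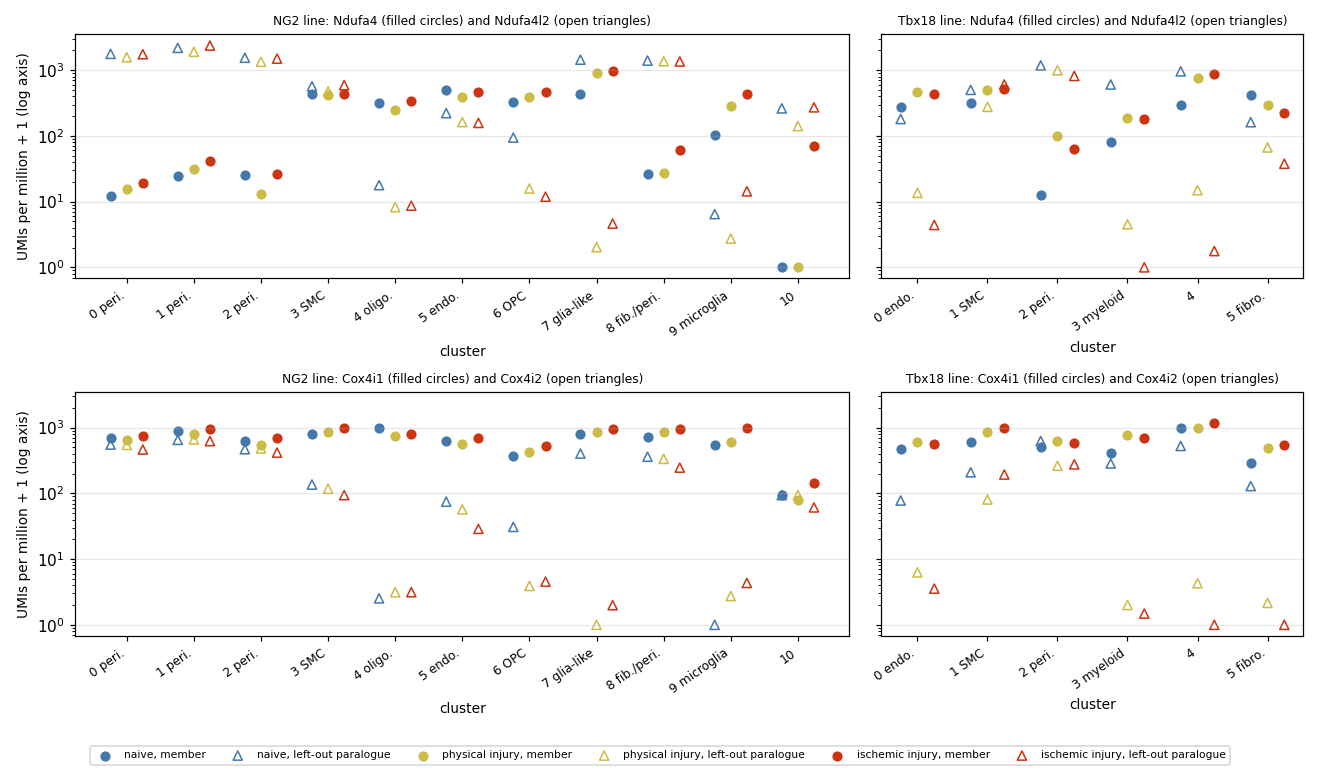
Ndufa4 with Ndufa4l2 (top) and Cox4i1 with Cox4i2 (bottom) in CPM plus 1 on a log axis, for each cluster and library of the NG2 (left) and Tbx18 (right) line, with filled circles for the member and open triangles for its left-out paralogue. Ndufa4 lies between 11.3 and 40.6 CPM in NG2 clusters 0, 1 and 2, where Ndufa4l2 is at 1340 CPM or more, while Cox4i1 is of similar height in most clusters. The naive points of Tbx18 clusters 3 and 4 come from cells that carried pericyte markers.

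Other isoform groups differed less or rested on few UMIs. Cox6b2, an isoform of the complex IV subunit Cox6b1 best known from testis, was at 28.5 to 55.0 CPM in NG2 pericyte-like clusters and at 3.52 CPM in endothelial-like cluster 5 after physical injury. Its share of the Cox6b pair reached 10.2% in naive cluster 1. Cox6a2, the striated-muscle isoform of Cox6a1, was at 36.7 CPM in NG2 microglia-like cluster 9 after ischemic injury. It was at 0 UMIs in each library of the NG2 pericyte-like clusters, which allows up to 0.546 to 3.20 CPM there (3 counts). In the Tbx18 line it had 4 UMIs in pericyte-like cluster 2 after physical injury. Myeloid-like cluster 3 of that line held 5 UMIs of it after ischemic and 3 after physical injury. Cox7a1, the heart and muscle isoform, had a median of 7.51 CPM over the NG2 pairs, against 425 CPM for Cox7a2. Cox7a2l, the supercomplex factor, ranged from 54.5 CPM in naive OPC-like to 323 CPM in ischemic endothelial-like cells. The 3 genes Atp5g1, Atp5g2 and Atp5g3 encode the same mature c subunit of ATP synthase, and each was present in every pair. Atp5g1 reached 505 CPM and Atp5g2 843 CPM in ischemic cluster 7, whereas Atp5g3 was highest, at 356 CPM, in naive smooth muscle-like cells. Cox5a also peaked in ischemic cluster 7, at 594 CPM, while Cox5b peaked at 394 CPM in cluster 8 after physical injury.

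Several of the nuclear core subunits of complex I described here had their highest NG2 value in pericyte-like cluster 1. Cluster 1 also had the highest sum of all members among the pericyte-like clusters. The share of all members or genes that peaked there was not counted, so these peaks are descriptions only. Ndufs7, which carries the last iron-sulfur cluster of the chain, reached 399 CPM in naive cluster 1 and was lowest, at 109 CPM, in ischemic OPC-like cells. Ndufv1, which binds NADH, at 144 CPM and Ndufs8 at 168 CPM also peaked in naive cluster 1. Ndufs3 and Ndufv2 peaked in ischemic cluster 1, at 175 and 261 CPM. Ndufs1, the largest core subunit, peaked in cluster 8 instead, at 81.6 CPM. Ndufs3 was higher in pericyte-like cells in 15 of 15 of the pairings described for Ndufa4, with a median log2 ratio of 0.63. Ndufv1 was higher in 12, Ndufv2 in 11 and Ndufs7 in 10 of 15, and Ndufs8 in 13 and Ndufs1 in 7 of 14 that met the minimum. Against smooth muscle-like cells of both lines, the log2 ratio of Ndufs7 ran from -0.50 to 0.05. Of the catalytic head of ATP synthase, Atp5a1 ranged from 252 to 587 CPM, Atp5b from 316 to 798 CPM and Atp5c1 from 192 to 412 CPM over the NG2 pairs.

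**Figure D4:**
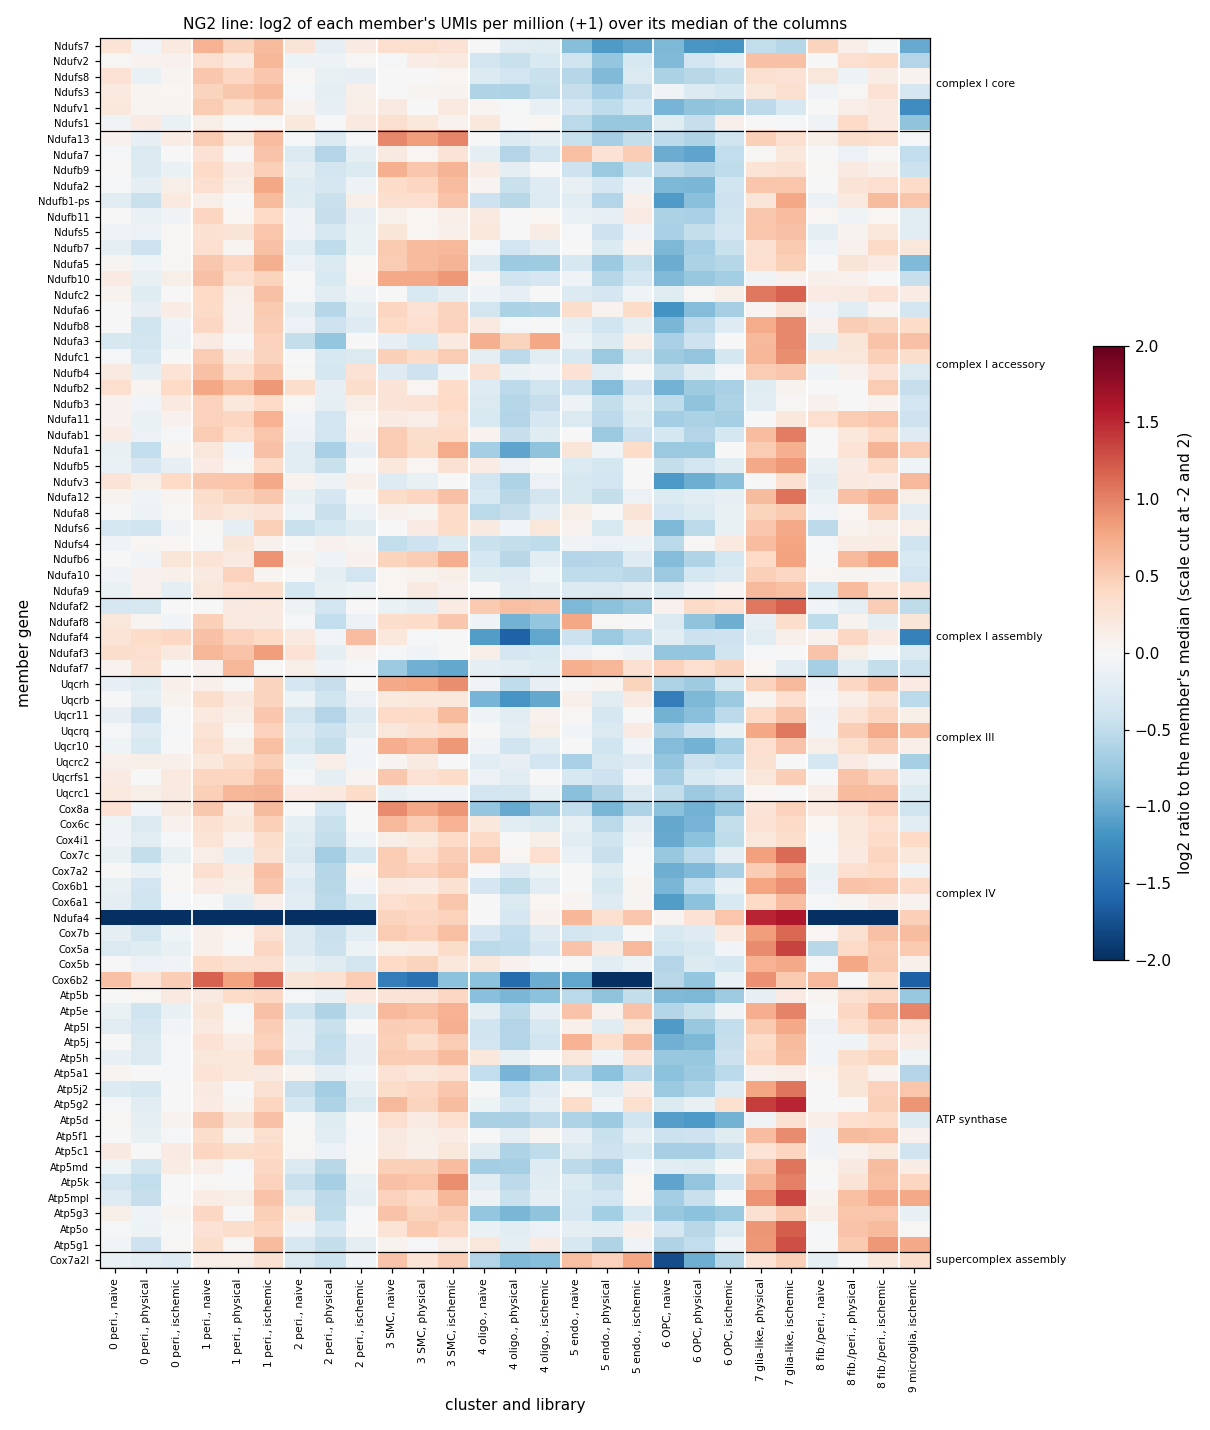
The log2 ratio of each of 79 members (rows, grouped by role) to its own median over 27 pairs of NG2 cluster and library (columns), on CPM plus 1, with colours from blue (lower) to red (higher) and the scale cut at -2 and 2. Most rows are redder in clusters 3 and 7 and bluer in cluster 6, while Ndufa4 and Cox6b2 follow their own pattern.

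The question of whether respiratory genes differ after injury was asked first in the NG2 pericyte-like clusters 0, 1 and 2. After physical injury the members summed to 18650 CPM in 1106 cells, against 21740 CPM in 3243 naive cells, a log2 ratio of -0.22 (95% interval -0.23 to -0.21). Of 79 members with at least 50 UMIs and a mean of 20 CPM, 72 were lower and 7 higher, with a median of -0.22 against -0.02 over all 7032 genes that met the same minimum. None of the 79 passed a fold of 1.5, while 1.44% of all genes passed it upwards and 1.08% downwards, so the difference was small and spread over many members. The intervals of 62 of the 79 members lay below 0, against 23.0% of all genes, and that of 1 member above 0, against 20.7%. Intervals narrow with more UMIs, and all genes were not matched to the members by level. Each of the 6 role groups was lower, with complex IV at -0.27, complex I accessory subunits at -0.24, core subunits and ATP synthase at -0.19, complex III at -0.17 and the assembly factors at -0.12.

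The lowest ratios were those of Atp5g3 (204 against 274 CPM, log2 ratio -0.42), Cox8a (959 against 1260 CPM, -0.39) and Ndufa1, an accessory subunit needed to assemble complex I (128 against 167 CPM, -0.39). The highest were Ndufaf7, a methyltransferase that modifies complex I, at 0.17, Ndufa9 at 0.15 and Ndufs4 at 0.14. The mt- genes went the other way in sum, with 28553 against 26034 CPM, a log2 ratio of 0.13. Of the 13 mt- genes 9 were higher, led by mt-Co1 at 0.32, and mt-Atp8 was lowest at -0.24.

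After ischemic injury the same clusters held 22809 CPM in 1085 cells, a log2 ratio of 0.07 (0.06 to 0.08) to the same naive cells. Of 80 members 55 were higher and 25 lower, and again none passed a fold of 1.5, against 1.09% of all genes upwards and 0.487% downwards. The intervals of 44 of the 80 members included 0. Complex III was at 0.13, ATP synthase at 0.09 and complex I core subunits at -0.06. The highest members were Ndufa4 (24.8 against 18.7 CPM, 0.41, with an interval of 0.08 to 0.74), Ndufb1-ps, which the annotation types as a noncoding gene, at 0.40, and Atp5k at 0.36. The lowest were the assembly factor Ndufaf8 at -0.25, Ndufs8 at -0.18 and Cox5b at -0.12. The mt- sum was at 24401 CPM, a log2 ratio of -0.09. Relative to the naive library, nuclear and mt- sums of the pooled clusters thus differed in opposite directions after either injury. Taken singly after ischemic injury, cluster 2 was higher in both, at 0.07 and 0.04. The mt- ratio was -0.18 in cluster 0 and -0.03 in cluster 1.

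**Figure D5:**
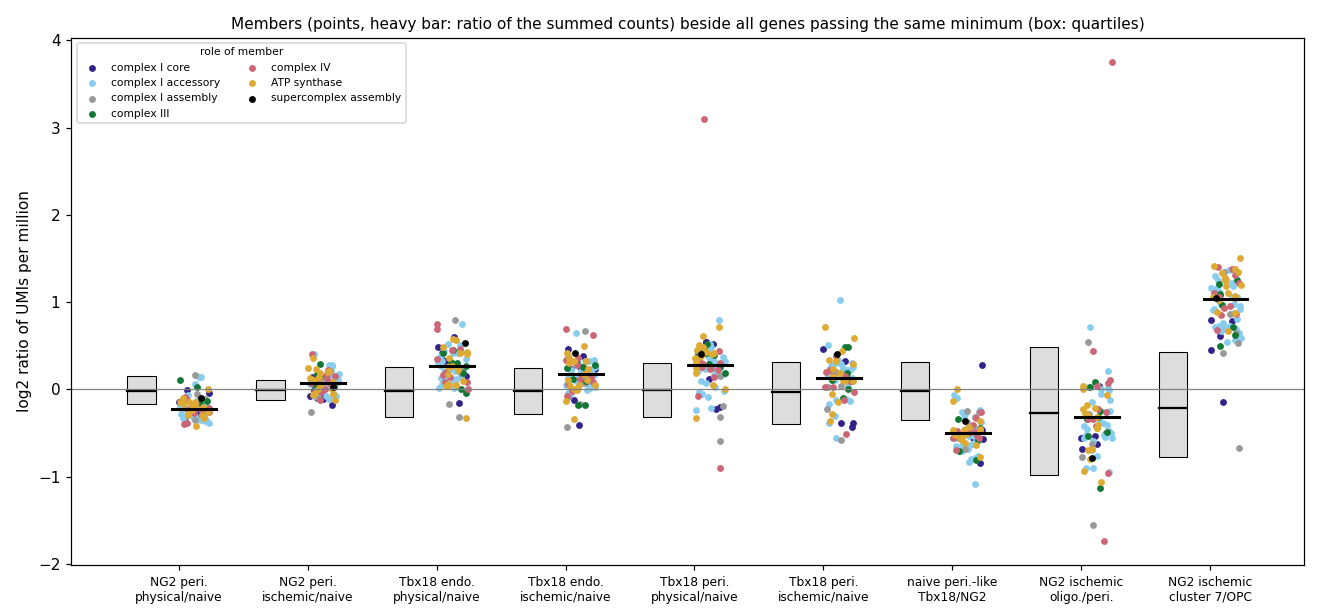
Log2 ratios of CPM in the 9 comparisons, with 1 point per member coloured by role, a heavy bar for the ratio of the summed members, and a grey box for the quartiles and median of all genes that met the same minimum. The members sit below the box median in the NG2 physical injury and naive line comparisons and above it after injury in the Tbx18 line, and the bar of the oligodendrocyte-like comparison, at -0.32, turns to 0.05 with TMM scaling.

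Besides clusters 0, 1 and 2, which gave the ratios above, 5 NG2 clusters had at least 50 cells in the naive and both injured libraries. After physical injury the nuclear sum was lower than naive in 3 of these 5, at log2 ratios of -0.06 in smooth muscle-like cluster 3 and -0.27 in oligodendrocyte-like cluster 4 and endothelial-like cluster 5. It was higher in OPC-like cluster 6, at 0.11, and in cluster 8, at 0.26. After ischemic injury it was higher in 4 of the 5, from 0.05 in cluster 5 to 0.39 in cluster 8, and lower in cluster 4, at -0.09. Between the injured libraries, the ischemic value was higher in 9 of 9 clusters, by 0.14 to 0.33, while the mt- sum was lower in 8 of 9. Since all clusters of a library were prepared together, these clusters are not replicates. Cytosolic ribosomal protein genes had the same sign as the members, though not always a like size. After physical injury they were at -0.43 in cluster 4 but only at -0.02 in cluster 5 and -0.01 in cluster 3. They were higher in clusters 6 and 8, at 0.34 and 0.88. After ischemic injury they were higher in 4 of the 5, and between the injured libraries in 9 of 9. The part of ribosomal protein genes in the members' difference was not tested.

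In Tbx18 endothelial-like cluster 0 the members were at 17425 CPM in 1788 cells after physical injury and at 14412 CPM in 159 naive cells, a log2 ratio of 0.27 (0.25 to 0.30). The 1788 cells held 12311618 UMIs and the 159 naive cells 741683, so the injured cells were deeper on average. The part of depth in the difference was not tested. Of 79 members 74 were higher and 5 lower, with a median of 0.26 against -0.02 over 6759 genes. The intervals of 44 of the 79 members included 0. Past a fold of 1.5 there were 5 members (6.33%) upwards, near the 7.43% of all genes, and none downwards, against 11.5%. These were Ndufaf4 (30.5 against 17.5 CPM, 0.80), Ndufa12, an accessory subunit (105 against 62 CPM, 0.75), Ndufa4 (466 against 278 CPM, 0.75), Cox7b at 0.70 and Ndufs1 at 0.60. Naive Ndufaf4 and Ndufs1 rested on 13 and 17 UMIs. The lowest were Atp5g3 at -0.33, Ndufaf8 at -0.32 and Ndufaf2 at -0.16. The mt- sum was 0.13 higher, although mt-Nd6 was at -1.29.

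After ischemic injury the same cluster held 16307 CPM, a log2 ratio of 0.18 (0.15 to 0.21) to naive, with 63 of 79 members higher. The intervals of 52 of the 79 members included 0. The 1488 cells of this cluster held 14091363 UMIs, again more per cell than in the naive cells. Upwards past a fold of 1.5 were 4 members (5.06%), against 7.5% of all genes, with none downwards, against 9.79%. The 4 were Cox7b (180 against 112 CPM, 0.69), Ndufaf4 at 0.67, Ndufa12 at 0.65 and Ndufa4 at 0.62. Ndufaf8 at -0.43, Ndufs7 at -0.41 and Atp5g3 at -0.34 were lowest. The naive cells of this cluster carried 3736 CPM of pericyte markers, against 346 CPM after physical and 102 CPM after ischemic injury, and 179 CPM of Ndufa4l2 against 12.6 and 3.41 CPM. Of the 159 naive cells, 63 and 19 fell in the endothelial-like clusters 10 and 13 of the table of both naive libraries. Another 68 fell in its cluster 6, whose best marker list was that of microglia. That cluster also took 145 of the 157 naive cells of Tbx18 cluster 4, which carried pericyte markers. Its best list therefore does not show what the 68 cells were. With only the naive cells that were also endothelial-like in the table of both naive libraries, the ratios were 0.37 and 0.27. With each cell weighted equally they were 0.16 and 0.04.

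In Tbx18 pericyte-like cluster 2 the members were at 18576 CPM in 433 cells after physical injury and at 15284 CPM in 226 naive cells, a log2 ratio of 0.28 (0.26 to 0.31). The 433 cells held 1484526 UMIs and the 226 naive cells 1487085, so the naive cells were deeper on average. The part of depth in the difference was not tested. Of 80 members 66 were higher and 14 lower, and the intervals of 29 of the 80 included 0. Complex III was at 0.37, ATP synthase at 0.32, complex IV at 0.27, complex I core and accessory subunits at 0.26 and 0.25, and the assembly factors at -0.10. Past a fold of 1.5 were 4 members upwards (5%), against 12.8% of all genes, and 2 downwards (2.50%), against 11.7%. Ndufa4 stood apart, with 97.7 CPM from 145 UMIs against 11.4 CPM from 17 UMIs, an 8.54-fold difference (log2 ratio 3.09, 2.37 to 3.91). Ndufa12 at 0.80, Atp5mpl at 0.72 and Atp5o at 0.62 followed, and Cox6b2 at -0.90 and Ndufaf4 at -0.59 were lowest, before Atp5g3 at -0.33. The mt- sum was 0.45 higher.

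Marker sums of this cluster differed along with Ndufa4. Pericyte markers summed to 29877 CPM in naive and 19056 CPM in physical injury cells, smooth muscle markers to 1539 and 5423 CPM, endothelial markers to 157 and 754 CPM, and fibroblast markers to 76.7 and 418 CPM. Cox4i2 was at 625 against 262 CPM and Ndufa4l2 at 1180 against 996 CPM. Ndufa4 is high in smooth muscle-like and endothelial-like cells of the same table, at 496 and 466 CPM after physical injury, and how much such cells or their RNA added to the pericyte-like value was not tested.

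After ischemic injury this cluster had 86 cells and 16727 CPM of the members, a log2 ratio of 0.13 (0.09 to 0.17) to naive, with 58 of 78 members higher. The members' median was 0.15, against -0.03 over 6072 genes. The intervals of 67 of the 78 members included 0. The 86 cells held 352373 UMIs, again fewer per cell than in the naive cells, and the part of depth was not tested. Upwards past a fold of 1.5 were 3 members (3.85%), Ndufa12 (156 against 76.7 CPM, 1.03), Atp5o at 0.71 and Atp5l at 0.59, against 12.2% of all genes, with none downwards, against 16.3%. In simulated data at this depth, 9.82% of unchanged genes passed that fold in either direction. Ndufa4 fell short of the minimum of 50 UMIs and is not among the 78, but it was again higher, with 62.4 CPM from 22 UMIs against 11.4 CPM from 17 UMIs (log2 ratio 2.45, 1.47 to 3.45). The lowest were Ndufaf8 at -0.58, from 13 UMIs after injury, Ndufb2 at -0.56 and Cox6a1 at -0.51. The ratio was 0.07 in cells of at most 5% mitochondrial UMIs and 0.04 with TMM scaling, which moves it by more than 1.5 times. Pericyte markers were at 18435 CPM here and endothelial markers at 1166 CPM. Smooth muscle-like cluster 1, the other Tbx18 cluster whose naive cells could be used, was at 0.33 after physical injury from 63 naive cells. Cytosolic ribosomal protein sums were higher than naive in clusters 0, 1 and 2 after physical injury, by 0.26 to 0.56, and in clusters 0 and 2 after ischemic injury, by 0.44 and 0.51, and their part in the members' difference was not tested.

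The lines were compared without injury in the clusters of the naive table named pericyte-like from their markers (0, 2, 3, 5, 8 and 9). Pericyte markers, relative to each marker's highest cluster, averaged 0.57 in cluster 5 and 0.46 in cluster 9, against 0.78 to 0.84 in the others. In cluster 5, 108 of 334 NG2 cells and 13 Tbx18 cells belonged to the smooth muscle-like cluster of their own line's clustering. The part of these cells was not tested. The Tbx18 cells held 14708 CPM of the members in 244 cells and the NG2 cells 20846 CPM in 2704 cells, a log2 ratio of -0.50 (-0.52 to -0.48). The 244 cells held 1430271 UMIs and the 2704 cells 11294794, so the Tbx18 cells were deeper on average. The part of depth in the difference was not tested. Of 79 members 77 were lower in Tbx18 cells, with a median of -0.52 against -0.02 over 7078 genes, and the intervals of 69 lay below 0, against 25.6% of all genes, and of none above 0, against 24.9%. By more than 1.5-fold, 21 members were lower (26.6%), against 10.2% of all genes, and none higher, against 11.2%. All 6 role groups were lower, from -0.33 for the assembly factors to -0.55 for complex I core subunits. Ndufa12 was lowest (73.4 against 156 CPM, -1.08), before Ndufs7 (175 against 314 CPM, -0.84) and Ndufb11 (154 against 274 CPM, -0.83). Ndufs1 was highest (79.0 against 65.3 CPM, 0.28), with Atp5k at 0.01 and Ndufs4 at -0.06. The mt- sum differed less, at -0.11, and mt-Nd6 was higher in Tbx18 cells, at 1.27.

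Within the pooled pericyte-like clusters, clusters 0 and 2 had at least 50 cells of both lines, and the ratios there were -0.53 and -0.44. Outside the pericyte-like cells, endothelial-like cluster 10 of the naive table was at -0.57, from 63 Tbx18 and 68 NG2 cells. Cytosolic ribosomal protein sums were lower in Tbx18 cells of these 3 clusters by 0.15 to 0.21. Line and library cannot be told apart in this comparison, because each line had 1 naive library.

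Within the NG2 ischemic library, oligodendrocyte-like cluster 4 held 18301 CPM of the members in 592 cells and pericyte-like clusters 0, 1 and 2 held 22809 CPM in 1085 cells, a log2 ratio of -0.32 (-0.33 to -0.31) that turned to 0.05 with TMM scaling. The median of all genes was itself at -0.27 on the CPM scale, and that of the members at -0.36. Past a fold of 1.5 were 20 of 80 members downwards (25%), against 37.5% of all genes, and 2 upwards (2.50%), against 23.2%. Those upwards were Ndufa4 (335 against 24.8 CPM, 13.5-fold) and Ndufa3 (321 against 196 CPM, 0.72), and Ndufaf2 followed at 0.54. The lowest were Cox6b2 (11.4 against 37.9 CPM, -1.74), Ndufaf4 (24.3 against 71.4 CPM, -1.56) and Uqcrb of complex III at -1.13. The mt- sum was higher by 0.42, with 11 of 13 genes higher and mt-Co1 at 0.92. Oligodendrocyte markers alone made up 63458 CPM of cluster 4, and its cells had a median of 29600 UMIs, against 2984 to 4755 in the pericyte-like clusters.

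In the same library, radial glia-like cluster 7 held 33912 CPM in 438 cells and OPC-like cluster 6 16535 CPM in 294 cells, a 2.05-fold difference (log2 ratio 1.04, 1.02 to 1.05). Of 81 members 79 were higher in cluster 7. Past a fold of 1.5 were 73 upwards (90.1%), against 20.2% of all genes, and 1 downwards (1.23%), Ndufaf7 at -0.67, against 32.3%. ATP synthase was at 1.15, complex IV at 1.10, complex III at 1.04, complex I accessory subunits at 0.94, core subunits at 0.68 and assembly factors at 0.57. Atp5o, the stalk subunit that links the head of ATP synthase to its base, was at 453 against 159 CPM (1.51), Atp5k at 433 against 162 CPM (1.42) and Cox5a at 594 against 225 CPM (1.40). Ndufs1 at -0.14 and Ndufaf3 at 0.42 were the lowest besides Ndufaf7. The mt- sum was only 0.19 higher. The median of all genes was at -0.22, and TMM scaling took the members' ratio to 1.48. Cluster 7 cells had a median of 37572 UMIs against 11764, summed cycling markers of 774 against 119 CPM, and cytosolic ribosomal proteins 1.68 higher on the log2 scale. The part of depth or cycling in the members' difference was not tested.

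The other lists of the pathway did not all follow the members. The list called complex II with cytochrome c held Sdha, Sdhb, Sdhc, Sdhd, Cycs and Cyc1. Of these, Cyc1 encodes cytochrome c1, a subunit of complex III that the symbol rule of the members leaves out. In NG2 pericyte-like cells after physical injury the mitochondrial ribosome was at -0.21, cytosolic ribosomal proteins at -0.13, glycolysis at -0.10, COX assembly factors at -0.09, the TCA cycle at -0.08, complex II with cytochrome c at -0.05 and the biogenesis factors at 0.04. After ischemic injury cytosolic ribosomal proteins were at 0.24, complex II with cytochrome c at 0.06, glycolysis at 0.03, COX assembly at 0.02, the mitochondrial ribosome at 0.00, the TCA cycle at -0.04 and biogenesis at -0.14. In the line comparison the mitochondrial ribosome, which makes the mt- encoded subunits, was at -0.51, with 29 of its 70 genes past a fold of 1.5 downwards, against 10.2% of all genes, and none upwards, against 11.2%. There glycolysis was at -0.30, the TCA cycle at -0.28, cytosolic ribosomal proteins at -0.22, complex II with cytochrome c at -0.20 and COX assembly at -0.12, with biogenesis at 0.06. In cluster 7 against OPC-like cells glycolysis was at 1.12, complex II with cytochrome c at 0.97, the mitochondrial ribosome at 0.89, the TCA cycle at 0.60 and COX assembly at 0.38, and biogenesis was at -0.13. In Tbx18 pericyte-like cells after physical injury cytosolic ribosomal proteins were at 0.56, above the members' 0.28, the mitochondrial ribosome at 0.15, the TCA cycle at 0.09, complex II with cytochrome c at -0.02, glycolysis at -0.04, COX assembly at -0.10 and biogenesis at -0.16.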

How the data were processed

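Single-cell 3′ libraries of tdT+/DAPI- cortical cells were made by the authors, 1 per group. Per the labels' processing notes, reads were aligned to GRCm38 (mm10) with Cell Ranger 7.0.0, and the methods name a range of versions, so whether all libraries were counted alike was not tested. The deposited values were UMI counts per gene and cell, with cluster and library names and a mitochondrial percent per cell that was deposited alongside. The authors kept genes in at least 3 cells, and cells with at least 200 genes, within 2 SD of the mean and with at most 12% mitochondrial UMIs, and removed 2 genes. Doublets were not removed here.

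Counts were summed per cluster and library and divided by all UMIs (Python 3.11.15, numpy 2.4.6, pandas 2.3.3). Intervals of ratios came from exact Clopper-Pearson limits (scipy 1.17.1). TMM factors were computed with edgeR 4.0.16. Genes with at least 50 UMIs in both groups together and a mean of 20 CPM were compared. All genes were not matched to the members by level, which bears on interval widths and on shares past a fold. Members' 10 highest levels, the 3 largest and 3 smallest ratios per comparison, the isoform groups and the core subunits were named, and 1 member is not reported here by itself. Near-identical copies and pseudogenes may share reads with members. Members and lists were chosen with earlier results of these data known, and the ratio scripts were tested on simulated data.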

Additional observations from a re-analysis of the deposited data

Results flagged for a closer look

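The difference between physical injury and naive had opposite signs in the 2 lines. In the pericyte-like clusters the summed members were at a log2 ratio of -0.22 in the NG2 line and 0.28 in the Tbx18 line. In the endothelial-like clusters they were at -0.27 in NG2 cluster 5 and 0.27 in Tbx18 cluster 0. With 1 library per group the difference between the lines was not tested. The naive Tbx18 library was the lowest of the 6 in summed members, at 17119 CPM, and the smallest, with 686 cells.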

How the results depend on the processing

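No paired analysis was possible because each group had 1 library, and for the same reason no library could be left out in turn. Structural subunits alone kept the direction and size of all 9 ratios. The comparison that turned was the oligodendrocyte-like one, from -0.32 to 0.046 with TMM scaling, whose factors divide out the shift of all genes. TMM scaling also gave 0.40 and 0.28 in Tbx18 endothelial-like cells after physical and ischemic injury, 0.043 in Tbx18 pericyte-like cells after ischemic injury, -0.58 between the naive lines and 1.48 for cluster 7. Equal weight of cells gave 0.16 and 0.036 in Tbx18 endothelial-like cells, -0.39 for oligodendrocyte-like cells and 1.36 for cluster 7. Without the 5% of cells with most UMIs the ratios were 0.22 and 0.11 in Tbx18 endothelial-like cells, 0.25 in Tbx18 pericyte-like cells after physical injury and 1.07 for cluster 7. Cells of at most 5% mitochondrial UMIs gave 0.067 in Tbx18 pericyte-like cells after ischemic injury and 0.97 for cluster 7, and non-mitochondrial UMIs as denominator gave -0.31 for oligodendrocyte-like cells. Chosen after seeing the data, equal weight of NG2 clusters 0, 1 and 2 gave -0.19 and 0.11, and naive cells that were endothelial-like in both tables gave 0.37 and 0.27. A minimum of 1000 UMIs per cell in the Tbx18 and naive comparisons, and adding naive clusters 1 and 7, kept every direction. At a fold of 2 the members past the threshold were 0 and 0 of 5 and 4 in Tbx18 endothelial-like cells, 1 and 1 of 6 and 3 in Tbx18 pericyte-like cells, 1 of 21 between the naive lines, 5 of 22 for oligodendrocyte-like cells and 39 of 74 for cluster 7. With no CPM minimum and at least 10 UMIs they were 8 and 7 in Tbx18 endothelial-like cells and 7 in Tbx18 pericyte-like cells after ischemic injury. The share of all genes at these other thresholds is not given, so these counts are no result about the members. The cause of the shifts between settings was not tested. Depth limits single Tbx18 members, where 13 UMIs stand behind the naive Ndufaf4 value of the endothelial-like and the ischemic Ndufaf8 value of the pericyte-like cells, whose pool after ischemic injury held 352373 UMIs.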
